A study of Mus musculus and blank sample with 191 samples.

Results

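The genes described here are 4 simple keratins (Krt7, Krt8, Krt18 and Krt19) and 5 genes of columnar cell adhesion and cell junctions (Epcam, Cdh1, Cldn3, Cldn4 and Cldn7). They were chosen as a list of symbols, and all 9 were found among the 19962 targets of a spatial whole-transcriptome profile (GeoMx) of the mouse uterus and among the 14881 targets that passed the authors' filter on low values. GeoMx collects barcoded probes from chosen areas of a tissue section, called regions, and counts them by sequencing. In 6 mice, 1 of the alleles of Thra1, which encodes a thyroid hormone receptor, carried the PV mutation (Thra1PV/+, genotype PV/N in the labels, here PV), and 8 mice were wild type (N/N, here WT). No treatment was named in the labels, and the mutation is carried in the germline, so every cell of a PV mouse has it. The ages, read as months, ran from 2.4 to 6.3 in PV and from 4.0 to 9.0 in WT. Each region was labelled epithelium or stroma, after a pathologist had placed it with stains for cytokeratins and smooth muscle actin. The labels do not separate lining epithelium from glands.

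Simple keratins are the intermediate filament proteins of one-layered epithelia. Type II keratins (Krt7 and Krt8) pair with type I keratins (Krt18 and Krt19) to build a filament, so that a cell needs both types. Epcam is a surface adhesion molecule of simple epithelia that binds Cldn7, Cdh1 (E-cadherin) joins neighbouring cells at the adherens junction, and claudins are the membrane proteins of the tight junction that set what passes between cells. In the uterus these proteins hold together the columnar lining of the lumen and the glands that grow from it, whereas stratified squamous epithelium uses other keratins.

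Several of the genes are neighbours. On GRCm38 (GENCODE vM21), Krt8 lies at chr15:101996698-102004482 on the minus strand and Krt18 at chr15:102028180-102032027 on the plus strand, 23.7 kb apart, and Krt7 is on the same chromosome at chr15:101411043-101430313. Cldn4 (chr5:134945119-134946934, minus strand) and Cldn3 (chr5:134986214-134987472, plus strand) are 39.3 kb apart. Cldn7 (chr11:69964779-69967885) and Krt19 (chr11:100140810-100148665, minus strand) share chromosome 11 at a distance, Epcam is at chr17:87635979-87651129 and Cdh1 at chr8:106603351-106670246. Promoter windows from RefSeq (GRCm38.p6, 250 bases before to 50 bases from the start on) were matched by symbol for 7 of the 9 genes, not for Krt19 and Cdh1, and Cldn7 had a window for each of 2 starts. The letters CACCTG, read on either strand (CAGGTG), were found in a window of each of the 7 genes, but not in that of the first Cldn7 start, so that 7 of 8 windows held them. Among all genes with a window 22.6% held them, and 20.2% of all 32851 windows. These letters are the E-box form known to be bound by the Zeb and Snai repressors of epithelial genes, whose differences between compartments are given below. A match describes the letters and is not evidence of binding. In Cldn3 the match lay 32 bases into the gene, and in the other 6 genes at least 1 match lay upstream. All 9 genes were higher in epithelium, also Cldn3 without an upstream match and Krt19 and Cdh1 without a window. A link between the letters and the levels was not tested. The stretches around an upstream match are shown for 5 of the genes that have one. They are written 5′ to 3′ along the gene's strand, with the motif in capitals.
Krt18, motif at -214, chr15:102027990-102028019, plus strand: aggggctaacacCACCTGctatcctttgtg
Krt7, motif at -44, chr15:101412347-101412376, plus strand: ccgccctgtcccCACCTGtgtgcgctcagc
Epcam, motif at -19, chr17:87635948-87635977, plus strand: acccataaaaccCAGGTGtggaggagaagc
Cldn4, motif at -14, chr5:134946935-134946960, minus strand: ctttaactgcagCACCTGtggccgcc
Cldn7, second start, motif at -97, chr11:69965312-69965341, plus strand: tttcttcctcttCACCTGgacgaggagggg
The positions count from the RefSeq start, and GENCODE places the Krt7 and Cldn7 stretches over an exon of a transcript of the same gene. Of the other letters searched, on both strands, AACCNGTT (a grainyhead form) was in a window of 0 of the 7 genes and of 2.35% of all genes, GGGCGG in 5 and 38.2%, TATAAA in 1 (Krt8) and 15.7%, GGAAGT in 3 and 26.5%, and CACCC in 7 and 59.8%.

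Before the levels were compared, the labels were set against the 9 genes in each region, as the mean of log2(CPM + 1), where CPM scales each count to a common total over the region. On the first of 2 plates the 60 epithelium regions lay at 7.42 to 8.68 and the 35 stroma regions at 3.65 to 5.72, with no overlap, and 95 of 95 regions were on their own side of the midpoint of 6.57. On the second plate 36 of 94 regions were on the other side, with epithelium regions down to 3.88 and stroma regions up to 8.71. The values below come from the first plate. Because the 9 genes themselves were used to judge the plates, their difference between compartments on the first plate is a description and carries no test, and the values from both plates, with the labels as deposited, are given beside it. The first plate held 31 PV and 29 WT epithelium regions from 6 and 8 mice, and 21 PV and 14 WT stroma regions from 6 and 7 mice. All regions of a compartment in a mouse were added up, which makes the mouse the unit of replication, and a sum held 61691 to 13492532 counts in epithelium and 85336 to 5195249 in stroma. Mice are numbered within genotype in the order of their animal numbers. PV5 gave 1 region per compartment and the smallest sum in each, so its values rest on few counts. In tissue regions, fewer cells of a type and less RNA per cell cannot be told apart. Each target was read by 1 probe, so levels are compared for a gene between samples and not between genes.

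The first question was how strongly the 9 genes separated epithelium from the stroma of the same mouse. All were higher in epithelium in 13 of 13 mice with both compartments. Fitted over mice (edgeR, mouse as a block), the keratins were higher by a log2 fold change of 3.25 ± 0.20 for Krt7, 4.22 ± 0.17 for Krt8, 3.93 ± 0.19 for Krt18 and 4.17 ± 0.19 for Krt19 (SE). Because the regions were placed with a cytokeratin stain, the keratin values describe the sampling on either plate.

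Among the 5 adhesion and junction genes, which no stain had used, Epcam was higher on the first plate by 3.90 ± 0.18, Cdh1 by 3.80 ± 0.14, Cldn3 by 3.93 ± 0.13 and Cldn7 by 3.82 ± 0.13. Cldn4 stood lower among them at 2.15 ± 0.18, a 4.42-fold difference, where Cldn3 differed 15.3-fold. Over both plates the same genes were higher by 1.59 ± 0.42 for Epcam (edgeR adjusted p = 0.00675), 1.68 ± 0.39 for Cdh1 (adjusted p = 0.00323), 1.69 ± 0.43 for Cldn3 (adjusted p = 0.00587), 1.77 ± 0.35 for Cldn7 (adjusted p = 0.00133) and 0.99 ± 0.27 for Cldn4 (adjusted p = 0.00825). All 5 were called higher over both plates, where 16.8% of the 14881 genes were called higher in epithelium and 21.0% lower. The sums over both plates hold the first-plate regions too, so these calls are not a separate test. The regions were placed as epithelium or stroma, so the calls describe that sampling as well. The keratin values over both plates were 1.65 to 2.02. For Cldn4, every epithelium sum was above every stroma sum by a narrow margin, 4.61 at the lowest in epithelium and 4.56 at the highest in stroma (log2 CPM). Every epithelium sum was also above every stroma sum for Krt8, Krt18, Krt19, Epcam, Cdh1, Cldn3 and Cldn7. Of all genes, 2.14% showed such a separation in this direction and 2.83% in the opposite one. The first plate was kept because the mean of the named genes and Krt7 separated its regions. Their separation on that plate is therefore not independent of the choice, and the shares of all genes do not measure how rare it is. For Krt7 the groups overlapped through PV5, whose epithelium sum held 2 Krt7 counts.

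**Figure D1:**
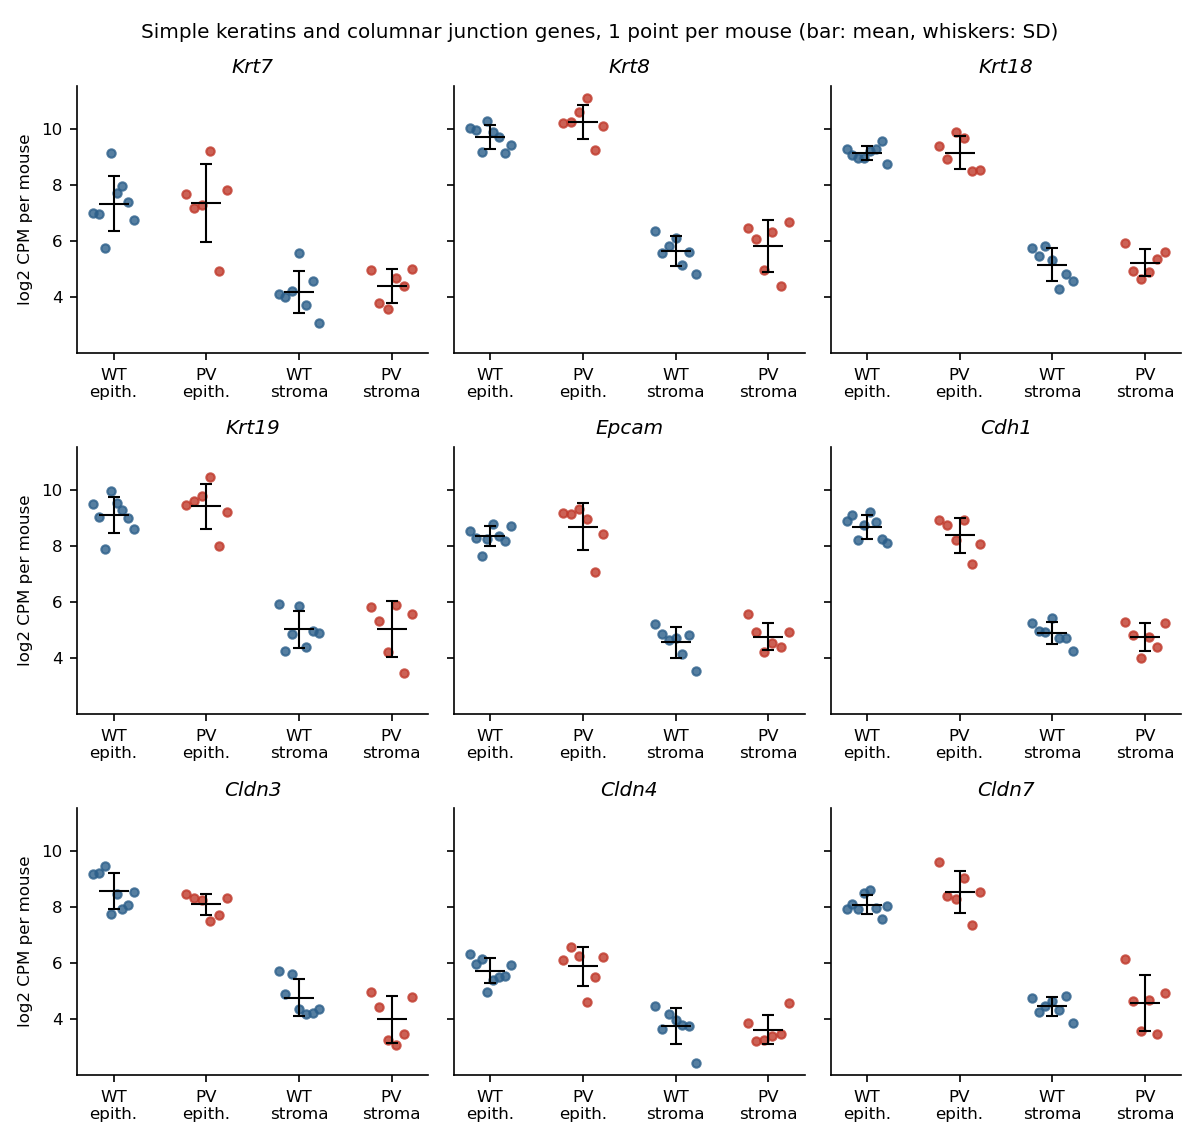
Log2 CPM of each gene per mouse (y axis) in WT and PV epithelium and stroma of the first plate, 1 point per mouse, with the mean as a bar and the SD as whiskers. The epithelium points lie above the stroma points for 8 of the 9 genes, and Krt7 of PV5 at 4.95 is the exception, while PV and WT points overlap within both compartments.

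How much signal was left in stroma differed between the genes. The stroma level as a share of the epithelium level of the same mouse had its lowest median for Krt19, at 5.15% (range 2.01 to 12.1%), and was 5.46% for Krt8, 6.51% for Cldn3, 6.70% for Cdh1, 6.75% for Cldn7, 7.84% for Krt18, 8.42% for Epcam and 9.10% for Krt7. For Cldn4 the median was 24.3%, with a range of 7.61 to 48.4%. The probe background bears on this share. In stroma regions the Cldn4 count was a median of 2.24 times that of the negative probes, which match no mouse transcript, and exceeded 2 times that level in 21 of 35 regions, whereas Krt8 stood at a median of 11.3 times and did so in 33 of 35. In epithelium Cldn4 was at 9.52 times and Krt8 at 161 times. After subtraction of the negative-probe level the Cldn4 difference between compartments was 2.87 ± 0.25 on the log2 scale and that of Krt7 3.81 ± 0.22, with the other 7 genes at 4.13 to 4.44. Among mice, the median share over the 9 genes was lowest in PV3 at 2.91% and highest in PV5 at 11.3% and WT3 at 11.0%, so the share ran across both genotypes.

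Other junction genes were counted from lists chosen for their known roles, on the first plate. That plate was kept for the 9 genes, so these calls are not independent of the choice. Of all genes, 28.4% were called higher in epithelium there and 34.6% lower. Of 19 tight junction genes tested besides the claudins above, 16 were called higher in epithelium and 1 lower, with a median log2 fold change of 1.73 against -0.05 over all genes. Cgn (cingulin, a cytoplasmic tight junction protein) was higher by 2.88 ± 0.14 and Marveld3, a membrane protein of the junction, by 2.28 ± 0.13, while Cldn15 was lower by a log2 fold change of -0.84 ± 0.14. Of 10 adherens junction genes, 7 were called higher and 2 lower (median 1.11). Nectin2, an adhesion molecule, was higher by 1.89 ± 0.13 and Jup, which links junctions to filaments, by 2.07 ± 0.14, whereas Nectin1 (-0.55 ± 0.09) and the P-cadherin gene Cdh3 (-0.55 ± 0.15) were lower. All 7 desmosome genes were called higher (median 2.13), among them Dsp, which anchors keratin filaments to the desmosome, 9.19-fold, and the desmosomal cadherin Dsg2, by a log2 fold change of 2.85 ± 0.14.

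Of 7 other simple keratins and partners of Epcam, 6 were called higher (median 2.32). St14, the membrane protease matriptase, was higher by 3.47 ± 0.17 and its inhibitor Spint2 by 2.81 ± 0.13. Of 10 regulators of epithelial identity, 7 were called higher and 0 lower (median 2.04), with Grhl2, a grainyhead factor that maintains junction genes, at 2.69 ± 0.12 and the splicing factor Esrp1 at 3.33 ± 0.16. All 10 mesenchymal counterparts were called lower in epithelium (median -1.93), among them the repressor gene Zeb2 (-2.94 ± 0.13) and the cadherin gene Cdh11 (-2.56 ± 0.13). The other Zeb and Snai genes were also in that list, with Zeb1 at -1.97 ± 0.13, Snai1 at -1.85 ± 0.13 and Snai2 at -1.81 ± 0.16. Whether they act on the 9 genes here was not tested. Markers of other cell types followed the labels, with 9 of 10 fibroblast, 6 of 6 smooth muscle, 6 of 6 endothelial and 5 of 6 immune markers called lower in epithelium. The genes whose log2 CPM over all 27 sums were most like the mean of the 9 were Esrp1 and Fermt1 (r = 0.99 for both), Lsr, Rnf128 and Myh14 (r = 0.98 for all 3), where the median over all genes was -0.04. These sums share mice and the split into compartments, and the 5 genes were picked as the highest among all genes tested.

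The second question was whether the genes differed between PV and WT epithelium. None of the 9 was called by edgeR, nor was any of the 14881 genes (0.0%), although 8.22% of genes had an unadjusted p under 0.05. No member separated the genotypes without overlap, which 0.134% of genes did. The 2 largest values were those of Cldn7 and Krt8, and both were lost after adjustment. Values over both plates, given below beside those of the first, include the second plate, where 36 of 94 regions conflicted with their compartment label. Whether the mouse and genotype labels there are also affected was not tested, so a smaller value over both plates does not bear on whether a difference exists.

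Krt8, the main type II keratin of simple epithelia, had 9.23, 10.24 and 11.10 log2 CPM in PV (lowest, median and highest of 6 mice) and 9.16, 9.81 and 10.29 in WT (8 mice). These ranges overlapped, with 5 of 6 PV mice over the median of WT and both PV3 and PV4 over every WT mouse. The fitted difference was 0.61 ± 0.26 (edgeR p = 0.0315, adjusted p = 0.57), and it was 0.39 ± 0.26 without PV4 and 0.32 ± 0.20 over both plates. With each mouse left out in turn the Krt8 difference ran from 0.39 to 0.75. Its partner Krt18 had 8.50, 9.16 and 9.90 in PV and 8.76, 9.14 and 9.58 in WT, with a difference of 0.10 ± 0.23 (adjusted p = 0.96) that was -0.15 ± 0.17 over both plates. The PV values of Krt18 spread on both sides of the WT range, with 2 mice above it and 2 below. The log2 level of Krt8 minus that of Krt18 in the same mouse, which depends on both probes and can be set only against that of other mice, had a mean of 1.10 ± 0.38 in PV (SD, n = 6) and 0.57 ± 0.51 in WT (n = 8), a pair of values chosen after they were seen and given with no test. Krt19 had 8.00, 9.52 and 10.47 in PV and 7.88, 9.15 and 9.98 in WT, with a difference of 0.38 ± 0.33 (adjusted p = 0.79) and of 0.22 ± 0.27 over both plates. Krt7, found in ducts and glands as well as the lining, had the widest spread, with 4.95, 7.48 and 9.22 in PV and 5.76, 7.18 and 9.13 in WT. Its difference was 0.24 ± 0.49 (adjusted p = 0.95), without PV4 it was -0.30 ± 0.46, and over both plates 0.31 ± 0.38. With another mouse left out it reached 0.69.

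Cldn7, the claudin that binds Epcam, had 7.38, 8.47 and 9.60 in PV and 7.59, 8.00 and 8.61 in WT. Of the 6 PV mice, 5 exceeded the median of WT, PV1 and PV4 exceeded every WT mouse and PV5 was below all, and the difference was 0.61 ± 0.27 (p = 0.0348 by edgeR, adjusted p = 0.58). Without PV1 it was 0.33 ± 0.24 and over both plates 0.43 ± 0.21. With each mouse left out in turn it ran from 0.33 to 0.74, and under the remaining alternatives from 0.44 to 0.87. Epcam had 7.09, 9.06 and 9.30 in PV and 7.63, 8.33 and 8.80 in WT, a difference of 0.49 ± 0.26 (adjusted p = 0.64) that was 0.11 ± 0.20 over both plates and 0.27 ± 0.24 by limma on the Q3 means. With each mouse left out in turn it ran from 0.39 to 0.65. For Epcam 4 of 6 PV mice lay above every WT mouse and PV5, with 9 counts, below all.

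Cldn3 went the other way, with 7.49, 8.27 and 8.47 in PV and 7.74, 8.51 and 9.48 in WT. All 6 PV mice were below the WT median, and the difference was -0.54 ± 0.28 (adjusted p = 0.63) and -0.70 ± 0.28 over both plates. Cdh1 had 7.38, 8.47 and 8.94 in PV and 8.10, 8.81 and 9.20 in WT, a difference of -0.22 ± 0.25 (adjusted p = 0.87) and of -0.30 ± 0.18 over both plates. Cldn4 had 4.61, 6.16 and 6.56 in PV and 4.97, 5.73 and 6.32 in WT, a difference of 0.29 ± 0.26 (adjusted p = 0.81) that was -0.20 ± 0.27 over both plates. The log2 level of Cldn7 minus that of Cldn3 in the same mouse was -0.35 to 1.55 in PV and -1.54 to 0.76 in WT, with means of 0.45 ± 0.73 and -0.49 ± 0.78 (SD). This contrast of claudins was also picked after the values were seen and has no test.

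**Figure D2:**
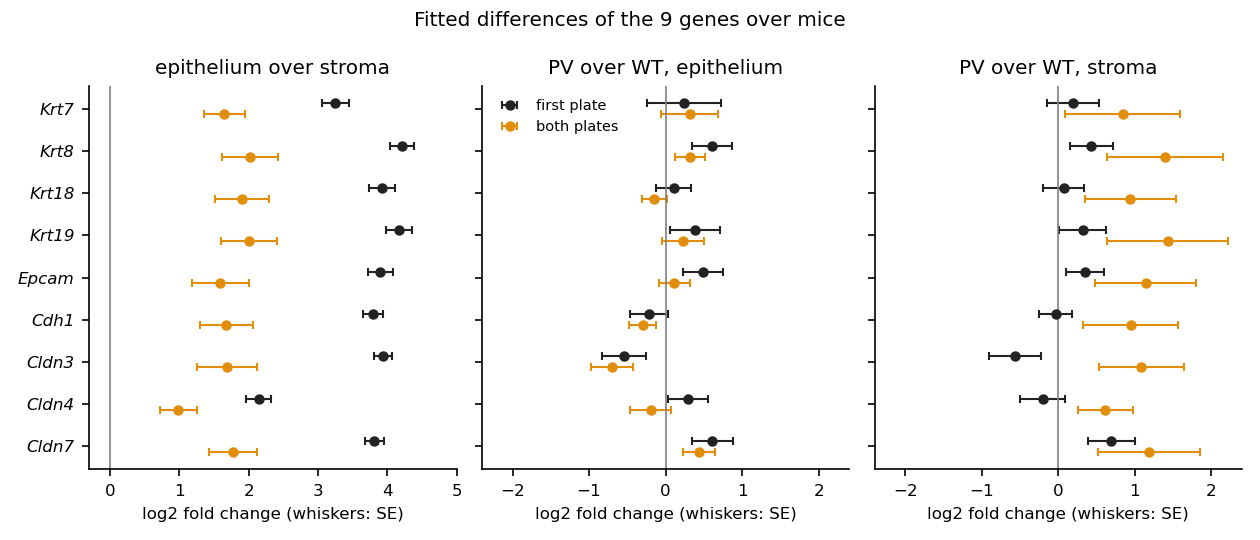
Fitted log2 fold change (x axis, whiskers SE) of each gene for epithelium over stroma, PV over WT in epithelium and PV over WT in stroma, from the first plate (black) and from both plates (orange). The first panel shows values from 2.15 to 4.22 on the first plate, and the PV over WT values on the first plate lie between -0.56 and 0.69.

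Levels of markers of the kind of epithelium sampled are given beside these genes. The luminal markers Wnt7a and Calml4 summed to 22.7 to 421 CPM in PV epithelium (median 163) and 21.6 to 71.5 CPM in WT (median 36.0), with a median log2 difference of 1.42 and none called. Between PV and WT epithelium Wnt7a differed by 2.34 ± 0.57 (edgeR p = 0.0007, adjusted p = 0.34). Calml4 differed by 0.51 ± 0.25 (p = 0.055 by edgeR, adjusted p = 0.61). Wnt7a was higher in epithelium than in stroma (log2 fold change 2.07 ± 0.30) and Calml4 was lower (-0.76 ± 0.18). The 5 gland markers summed to 121 to 529 CPM in PV (median 174) and 181 to 779 CPM in WT (median 306), and the 4 of them tested had a median log2 difference of -0.60, with none called and 2 lower at an unadjusted p under 0.05. The 15 stratified squamous markers summed to 130 to 879 CPM in PV epithelium, with the highest in PV6, and 104 to 243 CPM in WT. The 5 of them tested had a median log2 difference of 1.06 with none called, and 4 had an unadjusted p under 0.05 and a higher level in PV (Krt15 1.96 ± 0.60, Sprr1a 1.24 ± 0.47, Sfn 1.06 ± 0.41 and Krt13 0.81 ± 0.31). Krt1 went the other way (-0.36 ± 0.24). Of all 14881 genes, 657 had an unadjusted p under 0.05 with a higher level in PV epithelium and 566 with a lower one. Krt15 was at 7.63 log2 CPM in PV6 and at 3.35 to 4.95 in the other PV mice, where WT mice lay at 3.03 to 4.07. Sprr1a was at 7.11 in PV1, 6.70 in PV6 and 3.94 to 4.77 in the other PV mice, where WT mice lay at 3.69 to 5.54. The 10 fibroblast markers summed to 486 to 1398 CPM in PV and 583 to 1788 CPM in WT, with a median log2 difference of -0.41, none called and 3 lower at an unadjusted p under 0.05. No marker of these lists was at 0 in every mouse of a group. Their part in the PV and WT values of the 9 genes was not tested.

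Lists of other junction genes gave no call between genotypes in epithelium. Of those, 2 of 19 tight junction genes, 1 of 7 desmosome genes and 0 of 7 other simple keratins and Epcam partners had an unadjusted p under 0.05 with a higher level in PV, and 1 of the last 7 had one with a lower level. Over all 14881 genes, 657 had one with a higher level and 566 with a lower level. The median log2 difference was 0.08 for tight junction genes, 0.11 for adherens junction genes, 0.19 for desmosome genes and 0.29 for the 9 genes, against -0.01 over all genes.

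In stroma the 9 genes also gave no call between PV and WT (0.0% of all genes called, 3.52% with an unadjusted p under 0.05), and none separated the genotypes without overlap (0.0538% of genes did). Cldn7 had the largest value, 0.69 ± 0.30 (p = 0.0346 by edgeR, adjusted p = 1.00), from 3.46, 4.66 and 6.15 log2 CPM in PV (6 mice) and 3.87, 4.48 and 4.84 in WT (7 mice). The PV mice lay on both sides of the WT range, 2 above and 2 below (PV3 with 5 counts and PV5 with 1). Without PV1, the highest of them, the Cldn7 difference was 0.08 ± 0.24, and by limma on the Q3 means it was 0.12 ± 0.33. With another mouse left out it reached 0.83. Cldn3 was at 3.07, 3.94 and 4.98 in PV and 4.17, 4.37 and 5.72 in WT, with a difference of -0.56 ± 0.34, which was -0.87 ± 0.37 without PV1 and -0.37 ± 0.33 without WT1. The lowest Cldn3 sums, those of PV4, PV3 and PV5, held 7, 4 and 1 counts. The other differences in stroma were 0.43 ± 0.28 for Krt8, 0.35 ± 0.25 for Epcam (0.07 ± 0.25 without PV1 and up to 0.48 without another mouse), 0.32 ± 0.31 for Krt19, 0.19 ± 0.34 for Krt7, 0.07 ± 0.27 for Krt18, -0.03 ± 0.21 for Cdh1 and -0.20 ± 0.29 for Cldn4. Over both plates the stroma differences were 0.61 to 1.43 for all 9 genes, and none was called.

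The genotype difference in epithelium minus that in stroma, fitted within mice, was between -0.12 (Cdh1) and 0.48 (Cldn4) on the log2 scale, with SEs of 0.26 to 0.41. No member was called, nor was any gene (0.0%, and 7.16% with an unadjusted p under 0.05). With both plates these values ran from -2.12 to -0.86, again with none called.

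The regions of a mouse allowed the spread inside a uterus to be set against that between uteri. Over the 60 epithelium regions, as log2 of the authors' third-quartile normalised (Q3) value plus 1, mice of a genotype accounted for 85.1% of the variance of Krt7, 57.2% of Cdh1, 50.2% of Krt18, 47.0% of Cldn3, 37.3% of Krt19, 35.7% of Epcam, 31.8% of Cldn4, 24.1% of Krt8 and 10.5% of Cldn7. The median over all genes was 31.7%. Krt7 therefore varied mainly from mouse to mouse, whereas Cldn7 and Krt8 varied mainly between regions of the same mouse. In PV1, with 15 regions, Cldn7 ran from 6.66 to 9.53 log2 Q3 and Cldn3 from 7.31 to 7.90. In WT4, with 6 regions, Krt7 ran from 8.35 to 8.73 and Krt18 from 8.30 to 8.49, while Krt19 ran from 8.61 to 9.98.

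Inside mice, most of the genes moved together from region to region. With each gene taken as its deviation from the mouse mean, 31 of 36 pairs had a positive correlation over the 60 regions (median r = 0.41). The highest were Krt19 with Cldn3 (r = 0.88), Krt8 with Krt19 (0.87), Krt8 with Cldn7 (0.78), Krt8 with Cldn3 (0.77) and Krt8 with Epcam (0.76). Krt18 stood apart, with r = 0.04 to Krt8, -0.05 to Krt19 and -0.42 to Cldn7. In the 15 regions of PV1 Krt18 had r = -0.88 with Cldn7 and -0.52 with Krt8. The 45 regions of the other mice gave 0.01 with Cldn7 and 0.34 with Krt8, but they pool mice that went both ways. In WT3 the region with the highest Cldn7 deviation (1.28) had Krt18 at -0.24, and that with the lowest (-0.79) at 0.33. In WT1 the highest (0.86) had Krt18 at -0.18 and the lowest (-0.68) at 0.22. In PV2 the highest (0.71) had Krt18 at 0.37 and the lowest (-0.97) at -0.25. Krt18 with Krt19 was 0.01 without PV1, and the 5 highest pairs were 0.75 to 0.90. For Krt7 r was between -0.08 and 0.29 over all 60 regions, and here too PV1 differed: in its 15 regions Krt7 had r = 0.77 with Cdh1, 0.66 with Krt8, 0.54 with Cldn7 and 0.51 with Krt19, where the 45 regions of the other mice gave -0.08, 0.15, -0.11 and -0.02. Regions share the mouse, the section and the depth of a library. The correlation of a gene's deviation with that of the region's log2 depth was -0.20 for Krt18 and 0.22 to 0.41 for the other 8 genes.

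**Figure D3:**
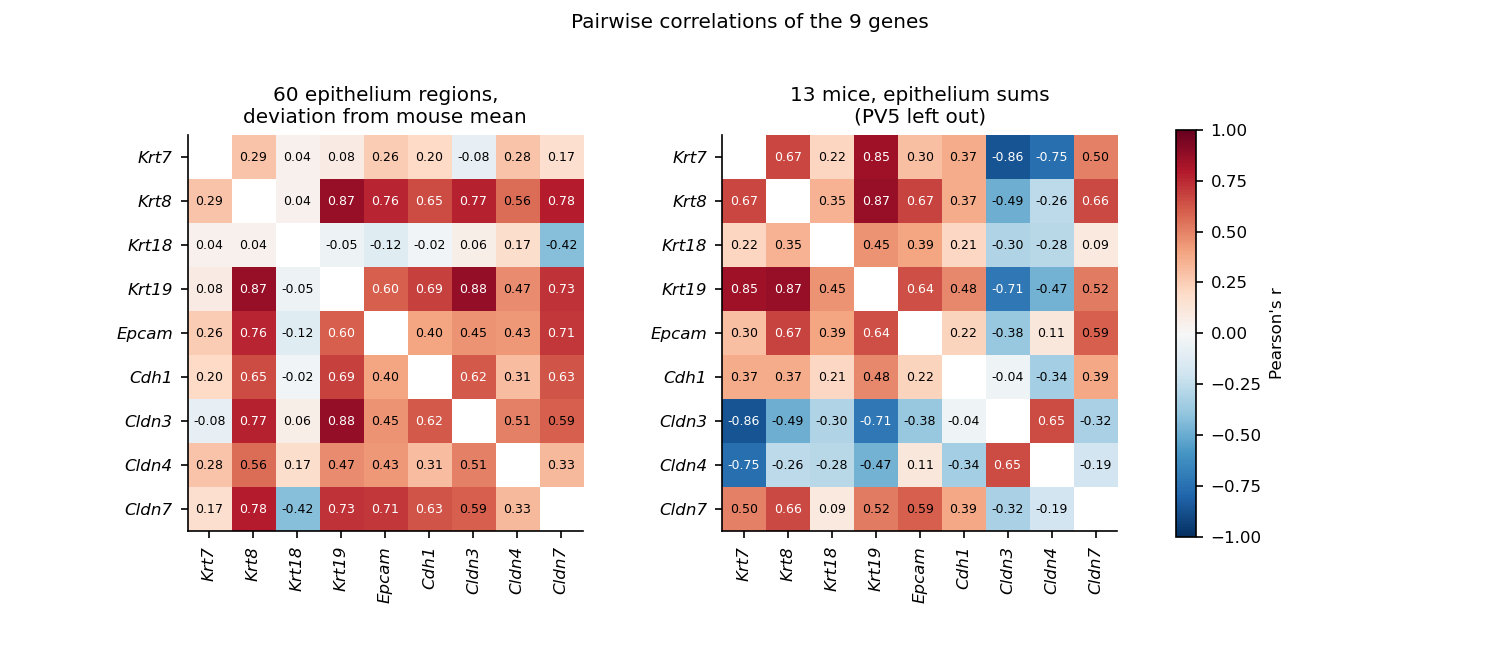
Pearson's r for each pair of genes (colour and printed value), on the left over 60 first-plate epithelium regions as deviations from the mouse mean, on the right over the epithelium sums of 13 mice without PV5. Cldn3 is positive with Krt19 on the left (0.88) and negative on the right (-0.71), and Krt18 is near 0 with most genes on the left.

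Marker lists were set against the 9 genes over the same regions. The mean of the 2 luminal markers, as a deviation from the mouse mean, correlated with Krt8 at r = 0.88, Krt19 at 0.78, Cldn7 at 0.76, Epcam at 0.67, Cldn3 at 0.65, Cdh1 at 0.62 and Cldn4 at 0.52, against 0.26 for Krt7 and -0.09 for Krt18. That value of Krt18 pools mice that ran in opposite directions. In PV1 the region with the lowest luminal deviation (-1.58) had Krt18 at 0.64, and that with the highest (1.51) at -0.22. In PV2 the lowest (-2.05) had Krt18 at -0.18 and the highest (1.73) at 0.37. The mean of the 4 gland markers (Foxa2, Sox9, Aldh1a1 and Spink1) correlated at -0.84 with Krt19, -0.78 with Cldn3, -0.70 with Krt8, -0.67 with Cldn7, -0.59 with Cdh1, -0.44 with Epcam and -0.29 with Cldn4, and at 0.07 with Krt7 and 0.16 with Krt18. The mean of the 5 stratified squamous markers correlated at 0.69 with Cldn7, 0.65 with Krt8, 0.58 with Krt19, 0.54 with Epcam, 0.53 with Cdh1, 0.50 with Cldn3, 0.49 with Cldn4 and 0.35 with Krt7, and at -0.35 with Krt18. Of these markers, Krt1 (-0.28 ± 0.14), Krt13 (0.10 ± 0.18) and Krt15 (0.38 ± 0.24) were not called between epithelium and stroma (log2 fold change). The fibroblast marker mean correlated at -0.26 to -0.47 with 8 of the genes and at 0.15 with Krt18. These are correlations over 60 regions of 14 mice and are given as descriptions.

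**Figure D4:**
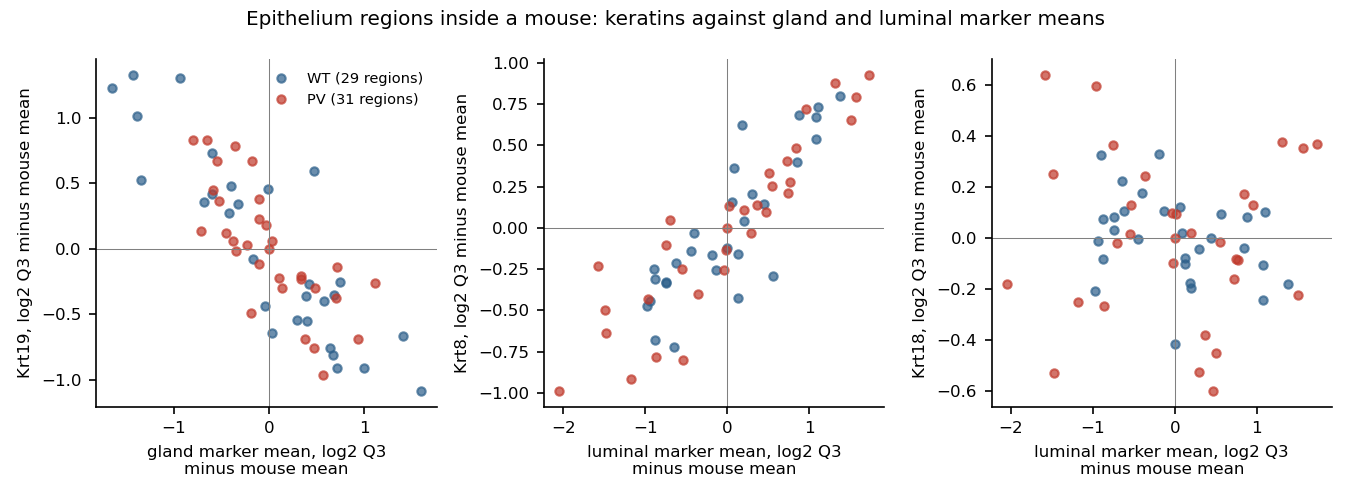
Each point is 1 of 60 epithelium regions (29 WT, 31 PV), plotted as log2 Q3 minus the mean of its mouse, for Krt19 against the gland marker mean, Krt8 against the luminal marker mean and Krt18 against the luminal marker mean. Krt19 is lower where the gland marker mean is higher (r = -0.84), and Krt8 is higher where the luminal marker mean is higher (r = 0.88). Points of both genotypes follow this trend, and centring on the mouse mean removes any offset between genotypes. Krt18 shows little relation over the pooled regions (r = -0.09), among which PV1 and PV2 run in opposite directions.

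Between mice the order was different. Over the epithelium sums of 14 mice, Krt7 correlated with Krt19 at r = 0.89 and with Krt8 at 0.71, but with Cldn3 at -0.45 and Cldn4 at -0.50, and without PV5, whose values rest on 2 to 40 counts in Krt7, Epcam, Cldn3, Cldn7 and Krt8, the last 2 were -0.86 and -0.75. Cldn3 with Krt19, positive inside mice, was -0.43 over 14 mice and -0.71 over 13. Mice at the ends of this order came from both genotypes. PV4 and WT4, both 6.3 months old, had the highest Krt7 (9.22 and 9.13 log2 CPM), the lowest Cldn4 (4.61 and 4.97) and low Cldn3 (7.49 and 7.74). WT3, also 6.3 months old, had Krt7 at 5.76, the highest Cldn3 at 9.48 and the lowest Krt19 at 7.88. The log2 level of Krt7 minus that of Cldn4 was 4.61 in PV4, 4.16 in WT4 and -0.39 in WT3, with a mean of 1.48 ± 1.73 in PV and 1.61 ± 1.40 in WT (SD), so the spread of this pair inside a genotype was larger than the gap between genotypes. These sums share normalisation, and the pairs were named after the values were seen.

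**Figure D5:**
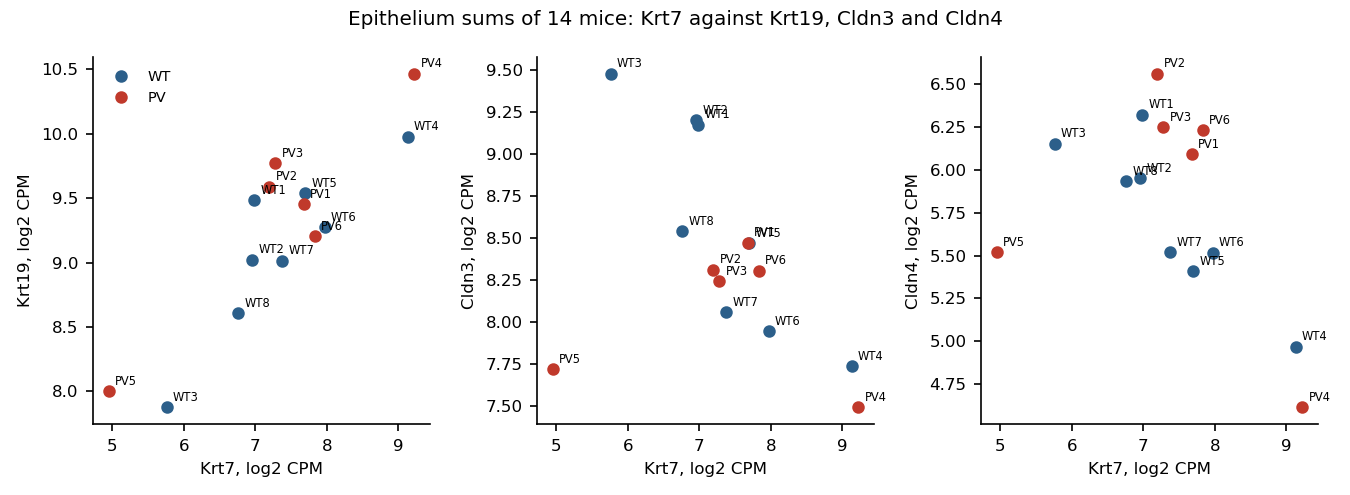
Log2 CPM of Krt7 in the epithelium sum of each of 14 mice (x axis) against Krt19, Cldn3 and Cldn4 (y axes), WT in blue and PV in red. PV4 and WT4 share the high end of Krt7 with low Cldn3 and Cldn4, WT3 has low Krt7 with the highest Cldn3, and PV5 is low in Krt7, Krt19 and Cldn3.

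By the same measure, the genes most like the mean of the 9 over the 14 epithelium sums were Dync1li1 (r = 0.95), Actr1a, Cdv3 and Ap2b1 (0.95 for all 3) and Smad7 (0.94), against a median of -0.02 over all genes. Without PV5, which had the lowest mean of the 9 genes at 7.31 log2 CPM, these were 0.87 to 0.90.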

How the data were processed

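Probe counts came from 189 GeoMx regions of the mouse uterus, and 2 no-template controls were not used. The deposited count table holds expected counts per target made by the authors, in which 0 was replaced by 1 (1.28% of values). The deposited normalised table holds signal values, counts divided by the third-quartile factor of a region. The authors' target filter left 14881 of 19962 targets. The submitters' processing notes name R 4.1.2, Space Ranger and mm10. The deposited per-region files give the same probe counts with true zeros for 19959 targets.

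First-plate counts were summed per mouse and compartment, rounded, and tested with edgeR 4.0.16 (quasi-likelihood, TMM, two-sided, Benjamini-Hochberg over 14881 genes, threshold 0.05) in R 4.3.3. An SE is the log2 fold change divided by the square root of F. Mouse sums are given as log2 CPM (prior count 2). The mouse was the block between compartments, since both come from the same animal (same-mouse deviations correlated at 0.160 to 0.526, 13 of 13 over 0.1). Region values are log2(Q3 + 1). The share of variance between mice comes from a one-way analysis nested in genotype. Sums held 61691 to 13492532 counts, and the number of mice limits the precision. The labels name 14 animals and the design text 13, and ages carry no unit in the labels. The probe of Thra was not used to check the mutation. The fits were tested on simulated counts before use.

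Named genes were the 9 members, up to 2 genes per direction and junction list, by lowest p, in a comparison with calls, and the 5 genes most like the members' mean over all sums and over epithelium sums. Members, lists and motifs were chosen with earlier results of these data known. One gene of the lists and 1 promoter stretch are not reported here, and the lists were summarised without that gene. Alternatives were DESeq2 1.42.0, upper-quartile scaling, no gene filter, limma 3.58.1 on log2 Q3 means, both plates, probe counts with true zeros, negative-probe subtraction, mice with at least 2 regions, age as a covariate, no replicate block and each mouse left out.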

Additional observations from a re-analysis of the deposited data

Results flagged for a closer look

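Among 36 groups of 6 to 8 mice, 1 held a mouse far from the others, where chance flags about 1 in 20 groups. Cldn4 in WT stroma was 2.44 log2 CPM in WT8, while the other 6 mice lay at 3.64 to 4.45. WT8 gave 1 stroma region, and the Cldn4 probe in stroma was close to the negative probes.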

How the results depend on the processing

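The compartment differences of all 9 genes kept their direction under every alternative run, with both plates giving the smallest. The count of genes called between compartments was 7952 to 11352 under the alternatives other than both plates, where it was 5631. Without a replicate block it was 7952. In epithelium DESeq2 called 28 genes between genotypes and age as a covariate gave 10, none of them a member, and leaving out each mouse in turn gave 0 to 6 (6 without PV4 and without WT4). In stroma DESeq2 called 2 and leaving out each mouse 0 to 1. For genotype by compartment DESeq2 called 1. No other alternative called a gene between genotypes, and the genotype term without a replicate block called 0.

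Both plates turned the sign of Krt18 (-0.15) and Cldn4 (-0.20) in epithelium and of Cdh1 (0.94), Cldn3 (1.09) and Cldn4 (0.61) in stroma. For genotype by compartment they gave -1.09 for Krt7, -1.74 for Krt8, -1.64 for Krt18, -2.01 for Krt19, -1.77 for Epcam, -2.12 for Cldn3, -0.86 for Cldn4 and -1.59 for Cldn7. In stroma Krt19 was -0.00085 by limma and Krt18 was -0.079 with mice of at least 2 regions and -0.10 with age as a covariate. For genotype by compartment Krt7 was -0.17 by limma, and without the replicate block Cldn3 was -0.022 and Cldn7 -0.055. Leaving out each mouse turned signs of values near 0. In epithelium Krt7 ran from -0.30 to 0.69 and Krt18 from -0.062 to 0.21. In stroma Krt7 ran from -0.023 to 0.58, Krt18 from -0.21 to 0.20 and Cdh1 from -0.19 to 0.072. For genotype by compartment the ranges were -0.14 to 0.42 for Krt7, -0.066 to 0.37 for Krt8, -0.15 to 0.30 for Krt18, -0.057 to 0.33 for Krt19, -0.25 to 0.082 for Cdh1 and -0.092 to 0.21 for Cldn3. None of these values was called, and the causes were not tested. The number of mice and the probe background of Cldn4 in stroma limit these values. The values from both plates also carry the label conflict of the second plate. There, 18 of 37 stroma regions and 18 of 57 epithelium regions were on the other side of the midpoint of 6.57. The part of this conflict in the turned signs was not tested.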
